A study of Arabidopsis thaliana with 7 samples.

Results

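Flavonoids and anthocyanins are made from the general phenylpropanoid precursor p-coumaroyl-CoA, and 10 Arabidopsis genes of this route, 8 enzymes and 2 MYB transcription factors, were followed in seedlings of the hot3 mutants. The genes were named by locus as steps of this route, with earlier results of these data known, among the 27655 genes in the count tables. They were CHS (AT5G13930), CHI (AT3G55120), F3H (AT3G51240), F3'H (AT5G07990), FLS1 (AT5G08640), DFR (AT5G42800), LDOX (AT4G22880), UF3GT (AT5G54060), PAP1 (AT1G56650) and PAP2 (AT1G66390). Polyadenylated RNA was sequenced from 18-day-old seedlings in 7 libraries: hot3-3 (n = 2), hot3-2 (n = 3) and the wild type (WT, n = 2). All 3 genotypes are in the Col-0 accession, and hot3-3 and hot3-2 each carry a T-DNA insertion in HOT3, which encodes eIF5B1, a factor that joins ribosomal subunits when translation starts. Each allele was represented by a single line, and the labels give 23°C and days of 16 h light and 8 h dark for all plants. The paper's methods give a slightly lower temperature. The sources used here do not say how many seedlings went into a library or whether replicates came from separate cultures, so the P values measure the spread between these libraries.

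Chalcone synthase (CHS) and chalcone isomerase (CHI) build the flavonoid skeleton, which flavanone 3-hydroxylase (F3H) turns into dihydroflavonols and flavonoid 3'-hydroxylase (F3'H) hydroxylates on the B ring. At the dihydroflavonols the route forks, since flavonol synthase (FLS1) makes flavonols while dihydroflavonol reductase (DFR) and leucoanthocyanidin dioxygenase (LDOX) make anthocyanidins, which glycosyltransferases such as UF3GT then decorate. UF3GT is the older name of UGT79B1, which adds xylose to anthocyanin 3-O-glucosides. In Arabidopsis leaves the flavonol-specific MYB factors act mainly on CHS, CHI, F3H and FLS1, the early genes, and a complex of a MYB factor such as PAP1 or PAP2, a bHLH factor such as TT8 and the WD40 protein TTG1 acts mainly on DFR, LDOX and later genes. Anthocyanins color stressed seedlings, and strong light, sucrose and nutrient shortage are known to raise them.

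DFR, LDOX, UF3GT and PAP1, the late genes and their activator, were higher in both alleles. In hot3-3, DFR and LDOX were 20.1- and 17.3-fold above WT and CHS and CHI 2.73- and 2.59-fold above it. In hot3-2, DFR and LDOX were 6.08- and 7.89-fold above WT, and none of CHS, CHI, F3H, F3'H and FLS1 passed the threshold. UF3GT and PAP1 were 23.7- and 15.7-fold above WT in hot3-3 and 6.25- and 4.66-fold in hot3-2. With few counts in WT, both passed the filter on low counts only through the mutant libraries. PAP2 was at or near 0 in every library.

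The 250 bases upstream of the annotated transcript start were read from the TAIR10.1 RefSeq genome for all 10 genes, and 6 of these windows are shown. They were chosen because they belong to the genes that changed most (DFR, LDOX, UF3GT and PAP1), to the entry enzyme CHS and to PAP2, a paralog of PAP1 with counts too low to test. They are written 5′ to 3′ on the strand of the gene and end at the base before the start, at chr5:4488226-4488475 (plus strand) for CHS, chr5:17166033-17166282 (minus) for DFR, chr4:12006210-12006459 (minus) for LDOX, chr5:21938397-21938646 (minus) for UF3GT, chr1:21235293-21235542 (minus) for PAP1 and chr1:24763691-24763940 (plus) for PAP2. Capitals mark the G-box CACGTG, a site of bHLH and bZIP factors, and other copies of its core ACGT.
CHS: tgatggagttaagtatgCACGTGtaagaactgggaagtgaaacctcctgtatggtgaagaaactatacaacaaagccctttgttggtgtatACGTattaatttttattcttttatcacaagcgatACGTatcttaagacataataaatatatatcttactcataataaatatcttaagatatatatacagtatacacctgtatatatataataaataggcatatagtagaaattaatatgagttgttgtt
DFR: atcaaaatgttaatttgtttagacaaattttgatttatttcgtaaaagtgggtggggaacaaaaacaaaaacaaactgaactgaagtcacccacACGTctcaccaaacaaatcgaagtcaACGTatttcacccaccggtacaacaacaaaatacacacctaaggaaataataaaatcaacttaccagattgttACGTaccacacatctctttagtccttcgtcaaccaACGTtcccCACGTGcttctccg
LDOX: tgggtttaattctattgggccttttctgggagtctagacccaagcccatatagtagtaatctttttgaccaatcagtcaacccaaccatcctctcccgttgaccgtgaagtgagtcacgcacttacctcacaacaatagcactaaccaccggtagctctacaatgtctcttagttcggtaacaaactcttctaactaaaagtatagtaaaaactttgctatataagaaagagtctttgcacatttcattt
UF3GT: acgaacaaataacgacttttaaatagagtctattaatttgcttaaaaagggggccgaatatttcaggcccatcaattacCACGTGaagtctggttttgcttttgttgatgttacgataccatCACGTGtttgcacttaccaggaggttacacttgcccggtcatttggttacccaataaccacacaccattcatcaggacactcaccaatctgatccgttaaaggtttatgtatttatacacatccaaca
PAP1: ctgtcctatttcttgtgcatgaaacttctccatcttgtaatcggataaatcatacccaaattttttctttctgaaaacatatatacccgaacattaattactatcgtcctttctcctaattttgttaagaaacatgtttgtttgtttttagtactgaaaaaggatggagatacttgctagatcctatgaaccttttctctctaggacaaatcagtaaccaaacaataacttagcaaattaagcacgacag
PAP2: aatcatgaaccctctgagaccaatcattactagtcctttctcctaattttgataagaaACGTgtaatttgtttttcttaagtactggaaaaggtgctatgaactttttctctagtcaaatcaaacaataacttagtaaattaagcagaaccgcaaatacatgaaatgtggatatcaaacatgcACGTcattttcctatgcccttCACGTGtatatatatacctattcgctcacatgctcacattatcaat
G-boxes, searched on both strands, were found in 5 of the 10 windows (CHS, F3H, DFR, UF3GT and PAP2), against 6.49% of the 27444 windows of this length in the genome. UF3GT held 2 of them, 171 and 128 bases before the start, and DFR held a single copy 14 bases before it. The ACGT core, of which every G-box holds a copy, was in the same 5 windows and in 44.1% of all windows. The broader bHLH motif CANNTG, which also overlaps the G-box, was in 7 of 10 windows and in 55.3% of all, and the MYB motif AACCTA was in 1 (CHI) and in 11.9% of all. The windows of LDOX and PAP1 held none of the 4 motifs, although both genes were among those that changed most, and that of PAP2 held a G-box. In a local alignment the PAP1 and PAP2 windows shared 115 of 159 aligned columns (72.3%). None of the 6 windows shown overlapped another annotated gene, and of those not shown only the F3H window did, with AT3G51238.

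The total count per library lay between 14090881 and 34696683, the highest being hot3-3 replicate 2 and the lowest hot3-2 replicate 2. HOT3 (AT1G76810) had 195 and 271 CPM (normalised counts per 1000000) in the libraries labelled hot3-3, 77.7, 97.4 and 92.5 CPM in hot3-2, and 171 and 169 CPM in WT. HOT3 was thus lower in hot3-2 and not in the libraries labelled hot3-3, where the count gives no check of the label since reads on either side of an insertion still add to a gene's count. In its RNA sequencing the paper reports missing reads around the insertion of each allele, which counts per gene cannot show. Summed markers of other tissues also differed between genotypes. The 4 leaf markers summed to 24340 to 25613 CPM in hot3-3, 27421 to 27903 CPM in hot3-2 and 39156 to 40380 CPM in WT, and the 5 root markers to 31.7 to 35.6 CPM in hot3-3, 21.1 to 29.8 CPM in hot3-2 and 13.5 to 17.4 CPM in WT. By the threshold given below, only RBCS3B of the leaf markers was called against WT, lower in both alleles. The other leaf markers also had negative log2 fold changes in hot3-3 and hot3-2. They were -0.76 and -0.58 for LHCB1.3, -0.44 and -0.35 for RBCS1A, and -0.31 and -0.14 for RCA. Of the root markers only EXPA7 and PRP3 were called against WT, higher in both alleles. Those not called were also positive, at 1.54 and 1.04 for COBL9, 1.13 and 0.09 for RHD6, and 0.42 and 0.41 for CASP1. Over all tested genes, 9.63% were called higher and 4.91% lower in hot3-3, and 7.8% and 3.88% in hot3-2. The 5 embryo storage genes summed to 218 to 375 CPM in hot3-3, 22.2 to 43.2 CPM in hot3-2 and 52.3 to 122 CPM in WT. Most of that sum came from CRA1 and CRU3, both called higher in hot3-3 and lower in hot3-2 against WT, while CRB averaged 0.596, 0.602 and 0.803 CPM in hot3-3, hot3-2 and WT and SESA3 2.83, 4.64 and 1.5 CPM, neither of them called. OLEO1 averaged 8.56, 2.02 and 2.76 CPM in the same order and was called against WT in hot3-3 only, as higher. The 5 floral organ genes stayed below 7 CPM in sum. APETALA1 averaged 0.72 CPM in WT, was at 0 in both hot3-3 libraries, and was called lower than WT in both alleles. It passed the filter on low counts, described below, only through the WT libraries. PI (log2 fold changes of -0.82 in hot3-3 and 0.65 in hot3-2) and SEP3 (-0.90 and -0.80) were tested and not called against WT. The paper reports late germination and slow seedling growth in hot3 mutants, so seedlings of the same age may not be at the same stage. The part of stage and of these marker differences in the results below was not tested. In whole seedlings fewer cells of a type and less RNA per cell cannot be told apart.

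In all, 9 of the 10 genes passed the filter on low counts and were tested, among 20795 genes, with edgeR's quasi-likelihood F test (the edgeR test below) and Benjamini-Hochberg adjustment over all of them. In WT, UF3GT (12 and 7 counts) and PAP1 (14 and 9 counts) were too low to pass on the WT libraries alone. They passed through the mutant libraries, where they were higher, so for them the filter was not independent of the change. Both count among the called genes below. A gene was called when its adjusted P was below 0.01 and its log2 fold change at least 1 in size. In hot3-3 against WT, 7 of the 9 were called higher and 0 lower, where 9.63% of all tested genes were called higher and 4.91% lower. In hot3-2 against WT, 4 of the 9 were called higher and 0 lower, against 7.8% and 3.88% of all genes. In hot3-3 against hot3-2, 4 of the 9 were called higher and 0 lower, against 0.856% and 0.351%. Without the adjustment, at P below 0.05, the counts of lower genes were 0 in all 3 comparisons, and DESeq2 also called 0 lower. Median log2 fold changes of the 9 genes were 1.45 in hot3-3 against WT, 0.72 in hot3-2 against WT and 1.13 between the alleles, beside 0.011, 0.001 and -0.003 over all tested genes. Both alleles share the same WT libraries, so their comparisons with WT are not independent of each other.

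**Figure D1:**
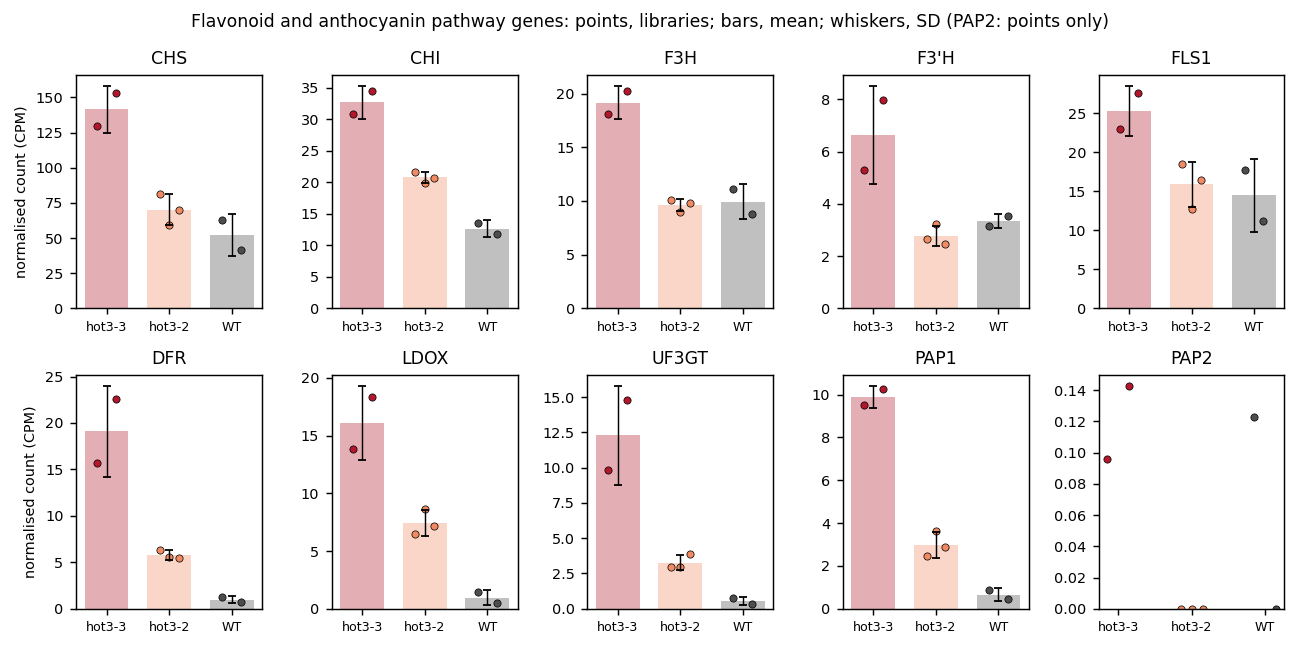
Normalised counts (CPM, linear axes from 0) of the 10 genes in each library of hot3-3, hot3-2 and WT, with points for libraries, bars for group means and whiskers for SD (points only for PAP2). DFR, LDOX, UF3GT and PAP1 step down over the 3 genotypes without overlap, whereas hot3-2 and WT libraries overlap for CHS, F3H, F3'H and FLS1.

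DFR, which commits dihydroflavonols to anthocyanins, had 325 and 790 counts in hot3-3, 148, 78 and 104 in hot3-2, and 20 and 15 in WT. Scaled for library size these were 15.6 and 22.6 CPM in hot3-3, 6.37, 5.57 and 5.43 CPM in hot3-2, and 1.23 and 0.723 CPM in WT. The 3 genotypes did not overlap, hot3-3 being highest and WT lowest. The log2 fold change was 4.33 ± 0.27 (SE) in hot3-3 and 2.60 ± 0.28 in hot3-2 against WT (adjusted P of 3.82e-06 and 8.02e-05 in the edgeR test). The gene lies on the minus strand of chromosome 5 from 17164093 to 17166032 (TAIR10.1) and has 6 exons.

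LDOX, the next enzyme, had 13.8 and 18.4 CPM in hot3-3, 6.50, 8.64 and 7.15 CPM in hot3-2, and 1.41 and 0.530 CPM in WT, where the counts were only 23 and 11. Again no library of one genotype reached into another. Its log2 fold change against WT was 4.11 ± 0.32 (SE) in hot3-3 and 2.98 ± 0.33 for hot3-2, the largest change of any of the 9 genes in hot3-2, with adjusted P of 1.09e-05 and 8.94e-05 in the edgeR test. Its 2 exons span 12004726 to 12006209 on the minus strand of chromosome 4.

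UF3GT, the glycosyltransferase, had 9.82 and 14.8 CPM in hot3-3, 2.97, 2.93 and 3.86 CPM in hot3-2, and 0.738 and 0.337 CPM in WT. With 12 and 7 counts in WT it was the least abundant of the tested genes there, and it had the largest change in hot3-3, where the log2 fold change was 4.57 ± 0.35 (SE; adjusted P of 9.09e-06 in the edgeR test). In hot3-2 the value was 2.64 ± 0.38 (adjusted P of 0.000407 in the same edgeR test). Its single exon spans 21936746 to 21938396 on the minus strand of chromosome 5.

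PAP1, the MYB factor that turns on the late genes, had 198 and 359 counts in hot3-3, 57, 51 and 55 in hot3-2, and 14 and 9 in WT. In CPM these were 9.53 and 10.2 in hot3-3, 2.45, 3.64 and 2.87 in hot3-2, and 0.861 and 0.434 in WT, without overlap between genotypes. The log2 fold change against WT was 3.97 ± 0.29 (SE) in hot3-3 and 2.22 ± 0.31 for hot3-2 (adjusted P of 7.47e-06 and 0.000366 in the edgeR test). The gene spans 21233555 to 21235292 on the minus strand of chromosome 1, 7.6 Mb from HOT3 on the same chromosome. Leaving out any library, or any other alternative tried, did not end the calls of DFR, LDOX, UF3GT and PAP1 against WT in either allele, but the size of some changes rested on the low WT counts. Without WT replicate 1 the log2 fold change of LDOX was 4.92 in hot3-3 and 3.78 in hot3-2 and that of UF3GT 5.17 and 3.25, and without WT replicate 2 that of LDOX was 3.49 in hot3-3 and 2.34 in hot3-2.

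PAP2, a close paralog of PAP1 with the same activator role, was not tested because of its low counts. It had 2 and 5 counts in hot3-3, 0, 0 and 0 in hot3-2, and 2 and 0 in WT. A count of 0 allows up to 3 counts, which is 0.129 to 0.214 CPM in the hot3-2 libraries, so differences of PAP2 between genotypes were not detectable at this depth. Its neighbours MYB113 and MYB114, MYB factors of the same group, were equally sparse, with at most 3 and 2 counts in any library. PAP2 spans 24763941 to 24765541 on the plus strand of chromosome 1, 4.07 Mb from HOT3.

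**Figure D2:**
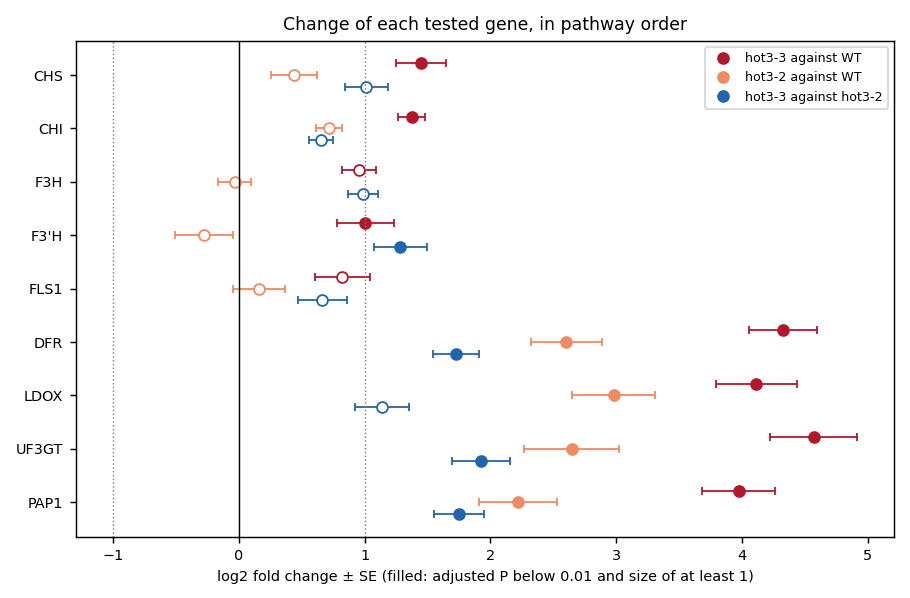
Log2 fold changes (points) with SE (whiskers) of the 9 tested genes in 3 comparisons, from the entry of the pathway at the top to PAP1 at the bottom; filled points passed the threshold and dotted lines mark a change of 1. DFR, LDOX, UF3GT and PAP1 lie beyond 2 in both comparisons with WT, while CHS to FLS1 lie at or below 1.45.

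CHS, the entry enzyme and the most abundant of the 10 transcripts, had 130 and 153 CPM in hot3-3, 81.2, 59.2 and 69.8 CPM in hot3-2, and 62.6 and 41.5 CPM in WT. Both hot3-3 libraries were above all others, and those of hot3-2 and WT overlapped. The log2 fold change against WT was 1.45 ± 0.20 (SE) in hot3-3 (adjusted P of 0.0003 in the edgeR test) and 0.44 ± 0.18 in hot3-2 (adjusted P of 0.0742).

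CHI had 30.8 and 34.5 CPM in hot3-3, 21.6, 19.9 and 20.7 CPM in hot3-2, and 13.6 and 11.8 CPM in WT. It was the only early gene whose 3 genotypes did not overlap. In hot3-3 it was called, with a log2 fold change of 1.37 ± 0.11 (SE) and an adjusted P of 1.09e-05 in the edgeR test. In hot3-2 its change of 0.72 ± 0.10 had an adjusted P of 0.000413 but was below the fold limit.

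F3H had 18.1 and 20.3 CPM in hot3-3, 10.1, 9.0 and 9.81 CPM in hot3-2, and 11.1 and 8.81 CPM in WT. The hot3-2 libraries lay within the range of WT, and the hot3-3 libraries above it. Its log2 fold change of 0.96 ± 0.13 (SE) in hot3-3 had an adjusted P of 0.000356 in the edgeR test and just missed the fold limit, and in hot3-2 the value was -0.03 ± 0.13. An annotated antisense gene, AT3G51238, covers 1588 bases of F3H, and whether the counting used strand is not given in the sources used here.

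FLS1, the flavonol branch enzyme, had 23.0 and 27.6 CPM in hot3-3, 18.5, 12.8 and 16.4 CPM in hot3-2, and 17.8 and 11.2 CPM in WT, so that hot3-2 and WT overlapped. Neither allele passed against WT, with log2 fold changes of 0.82 ± 0.22 (SE; adjusted P of 0.0119) in hot3-3 and 0.16 ± 0.21 (adjusted P of 0.555) in hot3-2 in the edgeR test.

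F3'H, which sets the hydroxylation of the B ring, had 5.30 and 7.97 CPM in hot3-3, 2.67, 3.22 and 2.45 CPM in hot3-2, and 3.14 and 3.52 CPM in WT. Only the hot3-3 libraries stood apart. In hot3-3 against WT it reached 1.01 ± 0.23 (log2 fold change ± SE; adjusted P of 0.00551 in the edgeR test), barely past both limits, and the call was lost in 10 of 13 alternatives. Without hot3-3 replicate 2 the change was 0.67 (adjusted P of 0.0571 in the same test). In hot3-2 the value was -0.28 ± 0.23.

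In hot3-3 against WT, all libraries of the mutant lay above all of WT for 9 of the 9 tested genes, where 38.7% of all tested genes did. In hot3-2 the libraries lay above WT for 5 of 9, against 34.7% of all genes, and between hot3-3 and hot3-2 for 9 of 9, against 22.6%. With groups of 2 and 3 an exact permutation test of a single gene could not go below a two-sided P of 0.333 for 2 against 2 or 0.2 for 3 against 2, so none was used.

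The alleles were then compared directly to ask whether the larger changes in hot3-3 exceeded the spread. UF3GT, PAP1, DFR and F3'H were higher in hot3-3 than in hot3-2, by log2 fold changes of 1.92 ± 0.23, 1.75 ± 0.20, 1.72 ± 0.18 and 1.28 ± 0.21 (SE), with adjusted P of 0.00225, 0.00198, 0.00138 and 0.00819 in the edgeR test. LDOX (1.13 ± 0.21, adjusted P of 0.0143) and CHS (1.01 ± 0.17, adjusted P of 0.01) just missed the P limit, while F3H (0.99 ± 0.12, adjusted P of 0.00243) and CHI (0.65 ± 0.09, adjusted P of 0.00471) missed the fold limit. FLS1 had 0.66 ± 0.19 with an adjusted P of 0.0655 in the same edgeR test. These calls were sensitive to single libraries. Without hot3-2 replicate 1 or hot3-2 replicate 3, 0 of the 9 genes were called, without hot3-2 replicate 2 the count was 2, and without hot3-3 replicate 2 it was 1, although all 9 log2 fold changes stayed positive and 5 to 8 of them kept an adjusted P below 0.05 in these 4 fits. With all libraries DESeq2 called 6 of the 9.

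Levels per kilobase of exon allow the genes to be compared with each other. CHS was highest in every genotype, at 83.2 ± 9.82 CPM per kb in hot3-3, 41.1 ± 6.47 in hot3-2 and 30.6 ± 8.74 in WT (SD, n = 2, 3 and 2), followed by CHI, FLS1 and F3H. In WT there was a step below F3H (6.59 ± 1.06 CPM per kb) to F3'H (1.72 ± 0.139), and LDOX, DFR, PAP1 and UF3GT followed at 0.326 to 0.695 CPM per kb, each within 1 SD of the next in this order. In hot3-3, DFR (12.6 ± 3.21) and LDOX (11.5 ± 2.29) lay within 1 SD of F3H (12.7 ± 1.04), and F3'H stayed below F3H. In hot3-2 LDOX (5.31 ± 0.787) and DFR (3.81 ± 0.333) lay between F3H (6.39 ± 0.38) and PAP1 (2.69 ± 0.545). F3'H had the lowest level of the tested genes in both mutants, at 3.44 ± 0.979 CPM per kb in hot3-3 and 1.44 ± 0.204 in hot3-2. The 10 genes together took 256 and 310 CPM in hot3-3, 152, 125 and 138 CPM in hot3-2, and 113 and 78.8 CPM in WT, of which CHS made up 47.4% to 55.6% in every library.

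Because library size cancels within a library, single genes of the 2 branches at the dihydroflavonols were also set against each other as ratios of counts. The pairs were chosen after the values were seen and are given as a description. FLS1 was the only flavonol gene used, and its paralog FLS5 is given below. DFR over FLS1 was 0.680 and 0.818 in hot3-3, 0.344, 0.436 and 0.331 in hot3-2, and 0.0692 and 0.0647 in WT. The genotypes did not overlap, and all 5 mutant libraries were above both WT libraries. LDOX over FLS1 was 0.600 and 0.666 in hot3-3, 0.351, 0.676 and 0.436 in hot3-2, and 0.0796 and 0.0474 in WT, so that the alleles overlapped and WT stood apart. FLS1 over F3H, both early genes, was 1.27 and 1.36 in hot3-3, 1.83, 1.42 and 1.67 in hot3-2, and 1.61 and 1.27 in WT, which overlapped.

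**Figure D3:**
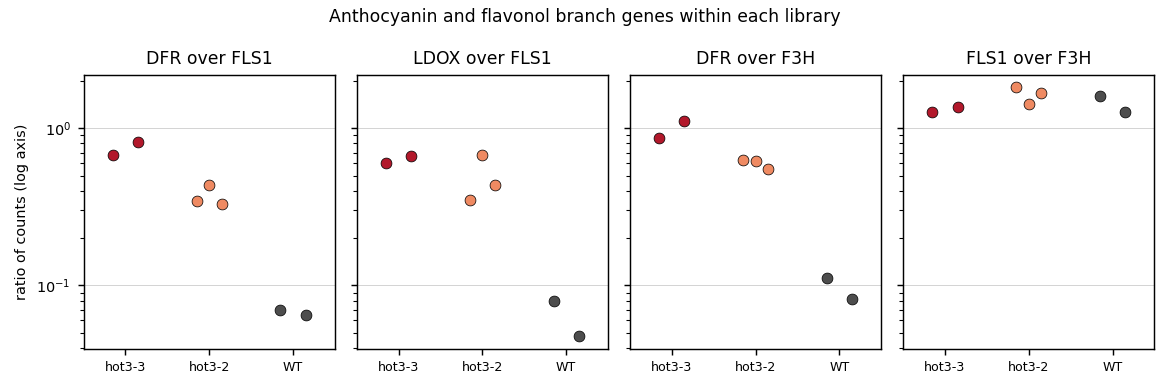
Ratios of counts within each library (log axis), with each point a library of hot3-3, hot3-2 or WT. DFR over FLS1, LDOX over FLS1 and DFR over F3H are lowest in the WT libraries, at or below 0.111, whereas FLS1 over F3H lies between 1.27 and 1.83 in all libraries.

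The wider pathway was read from 50 further genes in 7 lists written from general knowledge, of which 45 were tested. Of the genes called below, TT8 (4 and 5 counts in WT) and 5MAT (11 and 3) also passed the filter only through the mutant libraries. For hot3-3 against WT, 8 of the 45 were called higher and none lower, where 9.63% and 4.91% of all tested genes were. For hot3-2 against WT the numbers were 8 and 1 (7.8% and 3.88% of all), and for hot3-3 against hot3-2 they were 3 and 1 (0.856% and 0.351% of all). Their median log2 fold changes were 0.28, -0.02 and 0.34, beside the medians over all tested genes given above. DESeq2 also called 0 of them lower in hot3-3 against WT, where 4 of the 45 were lower at an unadjusted P below 0.05 in the edgeR test.

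Among the activators, TT8, the bHLH partner of PAP1, changed most. It had 120 and 240 counts (5.78 and 6.85 CPM) in hot3-3, 41, 40 and 38 counts (1.76, 2.86 and 1.98 CPM) in hot3-2, and 4 and 5 counts (0.246 and 0.241 CPM) in WT. The 3 genotypes did not overlap, and the log2 fold change was 4.67 ± 0.34 (SE) in hot3-3 and 3.11 ± 0.38 in hot3-2 against WT, with adjusted P of 7.71e-06 and 0.000154 in the edgeR test. The other bHLH factors GL3 and EGL3 were not called in either allele. TTG1, the WD40 partner, had 27.0 and 27.5 CPM in hot3-3, 28.0, 28.8 and 29.0 CPM in hot3-2, and 34.8 and 41.8 CPM in WT. Its log2 fold changes of -0.49 in hot3-3 and -0.43 in hot3-2 did not reach the fold limit.

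Anthocyanin decoration and transport held 4 genes of 9 called higher in hot3-3 and 3 of 9 in hot3-2, beside 9.63% and 7.8% of all tested genes. TT19, the glutathione S-transferase needed for anthocyanins to reach the vacuole, had 21.6 and 31.7 CPM in hot3-3, 8.60, 10.1 and 8.77 CPM in hot3-2, and 2.52 and 0.819 CPM in WT, with log2 fold changes of 4.07 ± 0.35 (SE) in hot3-3 and 2.51 ± 0.35 in hot3-2 that both passed. The malonyltransferase 5MAT had log2 fold changes of 4.15 and 3.01 and the acyltransferase SCPL10, which attaches sinapoyl groups, of 2.51 and 1.64 in hot3-3 and hot3-2, and all passed. The anthocyanin 5-O-glucosyltransferase 5GT was called in hot3-3 (1.46 ± 0.19) and not in hot3-2 (0.41 ± 0.19), and hot3-3 exceeded hot3-2 by 1.05 ± 0.17 with an adjusted P of 0.00759 in the edgeR test. UGT78D2, 3AT1, 3AT2, UGT84A2 and BGLU10 were not called. Annotated genes on the other strand overlap 5GT by up to 230 bases, TT19 by 108 and SCPL10 by 21. With the strand setting unknown, their counts may hold some reads of these partners. Without WT replicate 1 the changes of TT19 were 5.02 and 3.47 and those of 5MAT 5.52 and 4.38 in hot3-3 and hot3-2, and without WT replicate 2 they were 3.38 and 1.82 for TT19 and 3.31 and 2.16 for 5MAT. Between the alleles TT19 differed by 1.55 ± 0.24 (adjusted P of 0.00714) and TT8 by 1.56 ± 0.21 (adjusted P of 0.00376) in the edgeR test. The allele calls of TT8, TT19 and 5GT were lost without hot3-2 replicate 1, hot3-2 replicate 3 or hot3-3 replicate 2, and those of TT19 and 5GT also without hot3-2 replicate 2.

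Of the 7 repressors, MYBL2, a small MYB protein that blocks the activator complex, and LBD38, which lowers anthocyanin genes under ample nitrate, were called higher in both alleles, beside 9.63% of all tested genes in hot3-3 and 7.8% in hot3-2. MYBL2 had 110 and 108 CPM in hot3-3, 98.3, 92.2 and 92.3 CPM in hot3-2, and 36.8 and 50.3 CPM in WT, a log2 fold change of 1.32 ± 0.13 (SE) in hot3-3 and 1.11 ± 0.12 in hot3-2. LBD38 had log2 fold changes of 1.05 ± 0.12 in hot3-3 and 1.12 ± 0.12 in hot3-2. Both genes stood at similar levels in the alleles, which differed by 0.21 ± 0.12 and -0.07 ± 0.11 and did not pass. Without WT replicate 1 the LBD38 changes were 0.87 in hot3-3 and 0.94 in hot3-2 and that of MYBL2 in hot3-2 was 0.91, below the fold limit. At an unadjusted P below 0.05 in the edgeR test the repressors counted 3 higher and 0 lower in hot3-3, and 3 on each side of WT in hot3-2. Those below WT in hot3-2 were CPC (-0.73 ± 0.26), MYB4 (-0.57 ± 0.15) and SPL9 (-0.63 ± 0.17), which overlapped with no WT library and were not called, and their changes in hot3-3 were 0.02 ± 0.26, 0.07 ± 0.16 and -0.23 ± 0.18.

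Flavonol genes followed no common direction. UGT73C6, a flavonol glucosyltransferase, was called higher in both alleles, by 1.92 ± 0.20 (SE) in hot3-3 and 1.19 ± 0.19 in hot3-2 on the log2 scale, but an antisense gene, AT2G36792, covers all of its 1694 bases, and the counts of these partners may be mixed. Without WT replicate 2 its change in hot3-2 was 0.88 and not called. UGT78D1, which adds rhamnose to flavonols, had 33.3 and 39.7 CPM in hot3-3, 24.3, 23.8 and 24.3 CPM in hot3-2, and 57.3 and 42.0 CPM in WT. It was called lower in hot3-2 (-1.04 ± 0.13), which without WT replicate 1 was -0.80 and not called, and not in hot3-3 (-0.44 ± 0.14), and the alleles differed by 0.60 ± 0.13 with an adjusted P of 0.0242 in the edgeR test, which did not pass. The flavonol regulators MYB12 and MYB111 were not called in either allele.

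FLS5, a paralog of FLS1, had its highest level in hot3-2. It had 85.1 and 57.0 CPM in hot3-3, 192, 148 and 172 CPM in hot3-2, and 49.1 and 53.3 CPM in WT. All hot3-2 libraries were above the rest. The log2 fold change was 0.47 ± 0.18 (SE) in hot3-3, which did not pass, and 1.74 ± 0.17 in hot3-2, with an adjusted P of 5.12e-05 in the edgeR test, and that of hot3-3 against hot3-2 was -1.27 ± 0.17 (adjusted P of 0.00358). This allele call was lost without hot3-2 replicate 1, hot3-2 replicate 3 or hot3-3 replicate 2. In the same list CHIL, a chalcone isomerase-like protein that helps CHS, had 0.998 ± 0.168 in hot3-3, with an adjusted P of 0.00103 in the edgeR test, just under the fold limit.

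No gene of the general phenylpropanoid list (8 tested) or of the light signalling list (5 tested) was called in hot3-3, hot3-2 or between them by the edgeR test or by DESeq2. At an unadjusted P below 0.05, 1 phenylpropanoid gene was higher and 2 were lower in hot3-3, while hot3-2 had 2 higher and 3 lower. C4H, the hydroxylase that makes p-coumarate, had log2 fold changes of 0.27 ± 0.12 (SE) in hot3-3 and 0.50 ± 0.11 in hot3-2, and the lyase gene PAL4 of -0.64 ± 0.15 in hot3-3 and -0.66 ± 0.14 in hot3-2. Of the light genes at that unadjusted P, 2 were above WT in hot3-3 with none below it, and 1 was below WT in hot3-2 with none above it. SPA1 had 0.50 ± 0.13 and 0.17 ± 0.12 and HY5, a bZIP factor that binds ACGT motifs, -0.27 ± 0.16 and -0.47 ± 0.15 in hot3-3 and hot3-2.

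**Figure D4:**
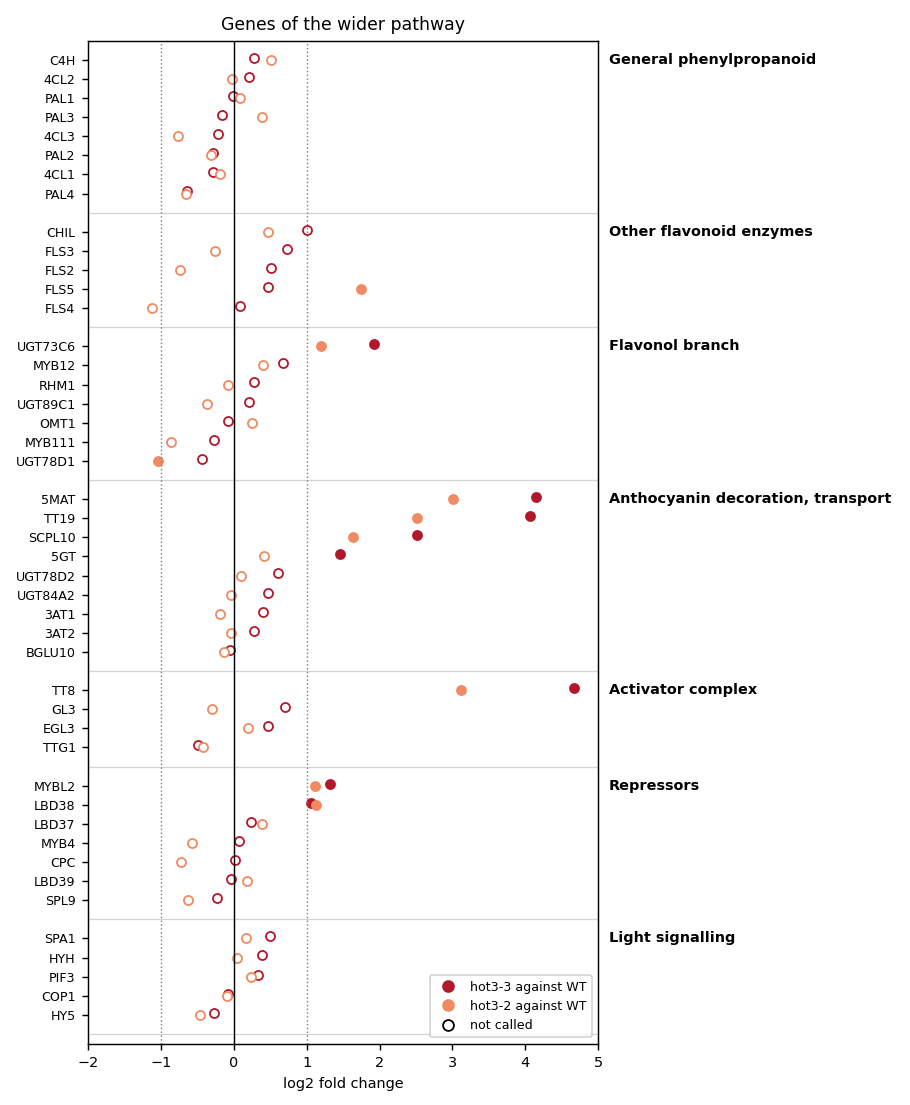
Log2 fold changes against WT of the 45 tested genes of the wider pathway, by list, for hot3-3 and hot3-2; filled points passed the threshold, open points did not, and dotted lines mark a change of 1 in size. TT8, 5MAT, TT19 and SCPL10 stand above 1.5 in both alleles, FLS5 is called in hot3-2 only, and the phenylpropanoid and light lists hold open points only.

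Proanthocyanidins share DFR and LDOX with anthocyanins but are made in the seed coat. Of 8 genes of that branch 3 were tested. BAN, the reductase that defines it, had at most 1 count in any library, and TT1 had 0 in all. TTG2, a WRKY factor that also acts in trichomes, was called higher in both alleles, by 2.13 ± 0.19 (SE) in hot3-3 and 1.17 ± 0.19 in hot3-2 on the log2 scale. TT12 and AHA10, also tested, were not called. Their log2 fold changes in hot3-3 and hot3-2 were -0.50 ± 0.23 and -0.47 ± 0.22 for TT12, and 0.98 ± 0.30 and -0.16 ± 0.32 for AHA10. Over all tested genes, 9.63% were called higher in hot3-3 and 7.8% in hot3-2.

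The genes most like each profile were looked up over the 7 libraries by Pearson's r of log2 CPM, among tested genes with a mean of at least 5 CPM. For the members and tested pathway genes r was also taken whatever their mean, so PAP1 and F3'H, below that limit, have values here. The points are 7 libraries in 3 groups, so r describes mainly the group means, and many genes had a high r: 663 of 15499 were above 0.95 with the late profile, 344 of 15502 with PAP1 and 48 of 15498 with the early profile. For the late profile, the mean of DFR, LDOX and UF3GT, the 5 closest were AT3G26470 (r = 0.997), TT19 (0.995), SCPL10 (0.995), WRKY23 (0.995) and AT2G28790 (0.994), of which TT19 and SCPL10 are themselves pathway genes. PAP1 and CHI followed this late profile at r of 0.989 and 0.987, ahead of CHS (0.892), FLS1 (0.762), F3H (0.715) and F3'H (0.540). For PAP1 the closest were ACO3 (0.998), AT1G63250 (0.995), NRPA1 (0.994), AHP4 (0.994) and AT5G10010 (0.992). For the early profile, the mean of CHS, CHI, F3H and FLS1, they were FAR5 (0.991), PLP6 (0.988), SERAT2;2 (0.986), AAC2 (0.983) and AT3G63380 (0.982), while 5GT (0.980), CHIL (0.971) and UGT78D2 (0.963) had values close to these.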

How the data were processed

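Per the labels and the study's methods, the authors trimmed read pairs (cutadapt 4.2), aligned them to TAIR10 (STAR 2.7.10b) and counted them per gene with featureCounts 2.0.3 (versions from the submitters' processing notes). The paper's methods name earlier versions of cutadapt and STAR. The deposited values are raw counts per gene, 1 table per library, with an exonic length column used for levels per kilobase. Strand setting and annotation release are not given in the sources used here.

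Genes with low counts were removed by filterByExpr of edgeR 4.0.16 in R 4.3.3 (minimum count of 10 in its scaled form), libraries were scaled by TMM, and all 7 were fitted together with genotype as the only factor. P values of the quasi-likelihood F test were adjusted by Benjamini-Hochberg over all 20795 tested genes. No list was tested as a set. CPM is the count over the TMM-scaled library size, and total counts of 14090881 to 34696683 set its precision, since a count of 0 allows up to 3 counts (counting error only). No library pair within a genotype agreed within sampling noise. The chi-square per gene was 18.9 for the WT pair, 11.6 for the hot3-3 pair and 2.58 to 7.69 for the hot3-2 pairs. The fit was tested on simulated data drawn from its own model. Changes were placed only in genes with a higher WT level than DFR, LDOX, UF3GT, PAP1 and TT8, so genes as low as these were not covered.

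Coordinates, exons and upstream windows are from the TAIR10.1 RefSeq annotation, in which 99.4% of 27445 matched genes had the exonic length of the deposited tables. The members, lists and tests were chosen with earlier results of these data known. Named genes were the 10 members, HOT3, MYB113, MYB114, list genes that were called or had the 2 smallest P of a list, and the 5 genes closest to each of 3 profiles. TTG2, TT12, AHA10, CPC, MYB4, SPL9, marker genes and pathway genes given beside these profiles were named after their values were seen. Alternatives were RLE and upper quartile scaling, no filter, DESeq2 1.42.0, only the 2 groups compared, a replicate block, an adjusted P below 0.05 without fold limit, and each library left out.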

Additional observations from a re-analysis of the deposited data

Results flagged for a closer look

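The changes from WT differed between the alleles, by edgeR's quasi-likelihood test of hot3-3 against hot3-2, for 8 named genes. The difference of hot3-3 minus hot3-2 on the log2 scale was 1.92 for UF3GT, 1.75 for PAP1, 1.72 for DFR, 1.28 for F3'H, 1.56 for TT8, 1.55 for TT19 and 1.05 for 5GT, all larger in hot3-3, and -1.27 for FLS5, which was larger in hot3-2. None of these 8 calls held without hot3-2 replicate 1 or without hot3-2 replicate 3.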

How the results depend on the processing

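Of 351 refitted log2 fold changes of the 9 tested genes (13 alternatives in 3 comparisons), 307 kept their direction and side of the threshold, 24 lost and 17 gained a call, and 3 turned sign, all 3 among uncalled values of hot3-2 against WT. With libraries left out in turn, F3H there ranged between -0.23 and 0.13 (0.13 without WT replicate 1, 0.01 without hot3-2 replicate 2) and FLS1 between -0.18 (without WT replicate 2) and 0.52. The cause was not tested.

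The comparison of hot3-3 with hot3-2 depended most on the processing. With libraries left out, members called higher ranged between 0 and 6, wider pathway genes called higher between 0 and 4 and lower between 0 and 1, and all genes called higher between 31 and 278 and lower between 15 and 127, where fits without a mutant library have fewer samples to compare. Wider pathway genes lower in hot3-2 against WT ranged between 0 and 2. Without the filter 279 genes were higher and 128 lower between the alleles, DESeq2 gave 122 lower, and the fit to only the 2 groups compared gave 121 lower.

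At an adjusted P below 0.05 without a fold limit, which is a looser rule by construction, hot3-3 against WT had 5612 genes higher and 5004 lower, with 15 wider pathway genes higher and 4 lower. In hot3-2 against WT 5454 genes were higher and 4814 lower, with 11 wider pathway genes lower. Between the alleles 1010 genes were higher and 927 lower, with 8 members and 14 wider pathway genes higher and 2 lower.

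The replicate numbers are shared by the genotypes, but nothing says that a number marks a shared batch, and same-numbered libraries deviated together at r of 0.15 and 0.18 between the alleles and 0.03 to 0.05 between the mutants and WT. A replicate block, into which hot3-2 replicate 3 enters alone, gave 96 genes higher between the alleles and 3 members and 0 wider pathway genes higher, so that F3'H, TT8, TT19 and 5GT were not called there, and left 6 members in hot3-3 and 4 in hot3-2 higher than WT.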
